A study of Mus musculus with 2 samples.

Results

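The genes described here code for the proteins that fold, modify, export, trim and crosslink procollagen, together with the collagen-binding protein Sparc and the bone matrix protein Serpinf1. They were taken by symbol from a fixed list of 31 genes, of which 30 had an amplicon target among the 23930 targets measured. Loxl2 was not analysed here. Both libraries were made from total RNA of coronal, sagittal and lambdoid cranial sutures, the fibrous joints between the skull bones, of wildtype pups at postnatal day 3, and both carry batch number 1. Strain, sex and the number of pups behind each library were not stated in the labels. The labels name suture stem cells as the cell type, but the protocol describes dissected tissue with no sort, so a level is that of all cells in the tissue. There is 1 group of 2 libraries and no other condition, and the libraries are called 1 and 2 after the number in their titles. Nothing in the labels says that they came from separate animals, so the spread between them may be partly technical.

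Procollagen chains are hydroxylated on proline and lysine in the endoplasmic reticulum (ER), fold into a triple helix with the help of dedicated chaperones, and leave the ER in enlarged COPII carriers. Outside the cell, proteinases remove the terminal propeptides, fibrils assemble, and lysyl oxidases start the covalent crosslinks. Mutations in many of these genes cause osteogenesis imperfecta or related connective tissue disorders in humans.

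Expression is given in CPM, the reads of a target per 1000000 reads of its library. Library 1 held 5663344 reads and library 2 held 15802610. A panel amplicon is a short stretch of fixed size, so CPM does not grow with transcript length, but amplification efficiency differs between amplicons. The ranking of unlike genes is therefore weaker evidence than the comparison of a single gene across the libraries. Differences are given as log2(CPM + 1) in library 1 minus library 2, or as the fold in CPM. An exact two-sided binomial test on the recovered reads, adjusted over all targets at a threshold of 0.05, compared the libraries with each other and not conditions. It covers counting error only.

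The libraries differed in the levels of cell type markers, given here before any of the collagen genes is considered. The sum of the 10 skeletal muscle markers was 44171 CPM for library 1 against 13614 CPM for library 2, and all 10 were called higher in library 1. All 8 osteoblast markers measured were called higher in library 2, with sums of 3232 CPM in library 1 and 6585 CPM in library 2. All 10 chondrocyte markers (755 and 1751 CPM in libraries 1 and 2), all 6 tooth germ genes (119 and 531 CPM) and all 6 olfactory neuron genes (96.4 and 524 CPM) were also higher in library 2. All 6 neuron and glia genes were higher in library 2 too (253 and 916 CPM). Endothelial (706 and 505 CPM; 5 of 7 higher in library 1), macrophage and osteoclast (3379 and 2266 CPM; 4 of 8) and erythroid markers (1471 and 1253 CPM; 4 of 5) leaned to library 1, as did tendon markers (991 and 889 CPM; 4 of 5). Smooth muscle and pericyte markers (484 and 810 CPM; 5 of 7) leaned to library 2. Keratinocyte markers (86.2 and 114 CPM) were mixed, with 3 of 5 called higher in library 2. Krt14 of that list was called higher in library 1 (22.2 and 5.57 CPM) and had its largest difference. Odam of the tooth germ list and C1qa of the macrophage list had no read in library 1. In bulk tissue, fewer cells of a type and less RNA per cell cannot be told apart. The part of tissue content in each difference given here was not tested.

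The machinery was detected almost in full. Of the 30 genes, 29 were at or above 1 CPM in each library, 28 were at or above 10 CPM and 16 at or above 100 CPM, whereas 55.0% of all targets reached 1 CPM and 34.6% reached 10 CPM. The share of all targets that reached 100 CPM was not computed. The gene below 1 CPM in library 1 was Tll2. Their sum was 24985 CPM for library 1 and 19932 CPM for library 2, of which Sparc alone gave 68.6% and 55.3%. Without Sparc the sums were 7839 CPM in library 1 and 8902 CPM in library 2. Set against the reads of both collagen I chains (Col1a1 plus Col1a2), these were 53.4 reads per 1000 collagen I reads in library 1 and 57.3 in library 2. The order of the 30 genes by CPM was much the same in both libraries, with a Spearman rho of 0.969. That value is across genes that share their libraries, and is a description.

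**Figure D1:**
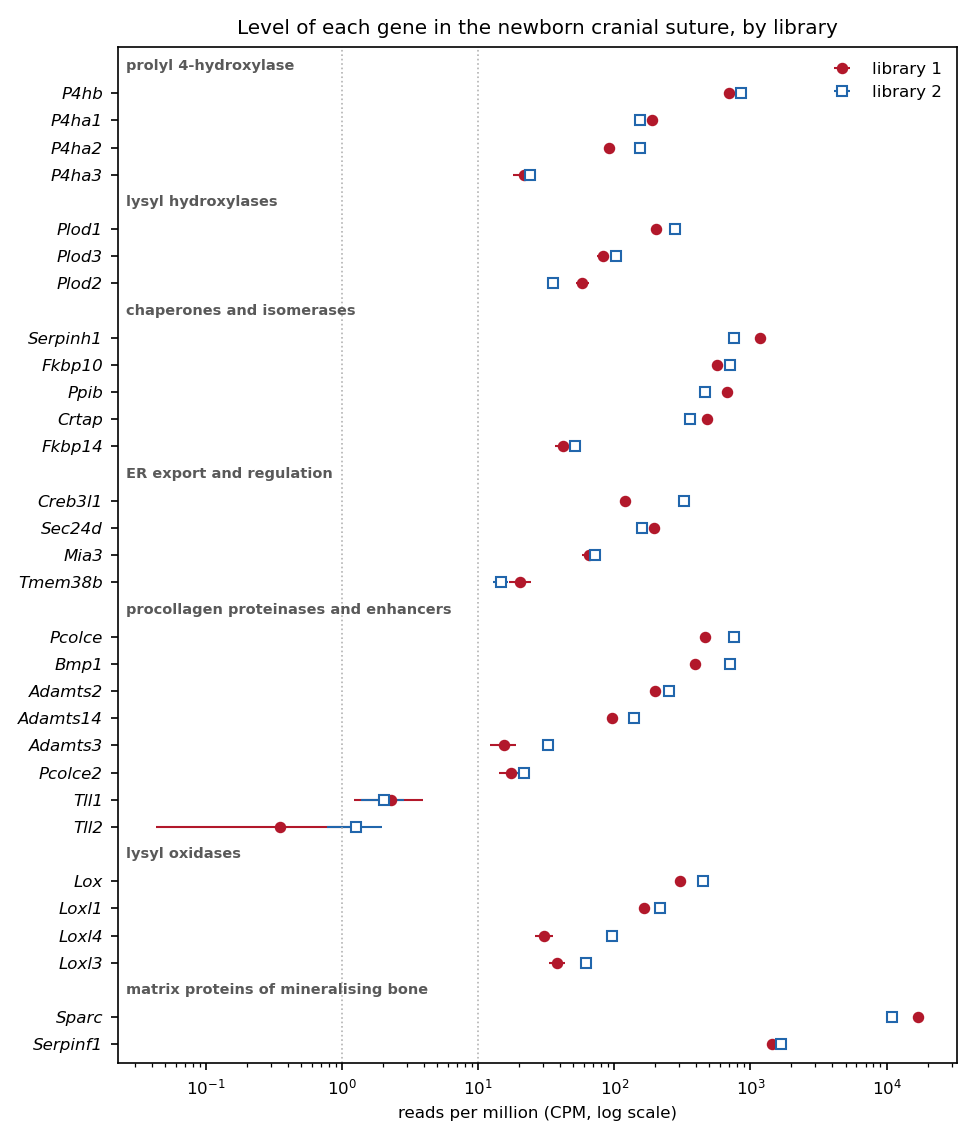
CPM on a log scale of each of the 30 genes, grouped by role, in library 1 (filled circles) and library 2 (open squares), with exact 95% Poisson intervals of the reads and dotted lines at 1 and 10 CPM. Sparc lies far to the right at 17146 and 11030 CPM in libraries 1 and 2, and Tll1 and Tll2 lie near or below the 1 CPM line.

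In the comparison of the libraries, 8 of the 30 genes were called higher in library 1, 17 were called higher in library 2 and 5 were not called. The same test called 17.1% of all targets higher in library 1 and 20.0% higher in library 2. Among targets averaging at least 10 CPM, where 28 of the 30 genes lie, the shares were 32.5% for library 1 and 37.0% for library 2. Over the 29 genes averaging at least 1 CPM, the median difference was -0.30, against -0.07 over all targets at that level. The 16 genes that act inside the cell were called 7 times in each direction, with a median difference of -0.15. Of the 14 secreted genes, 1 was higher in library 1 and 10 were higher in library 2, with a median of -0.54 over the 13 averaging at least 1 CPM. No test compared these gene groups with each other. The intracellular genes added up to 4669 CPM in library 1 against 4504 CPM in library 2, and the secreted genes, most of it Sparc, to 20316 against 15428 CPM. Without Sparc the secreted sum leaned the other way, and the intracellular sum was 1.47 times the secreted sum in library 1 and 1.02 times in library 2.

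The calls rest on deep counts and mostly on small folds. Among those averaging at least 10 CPM, none of the genes was 2-fold higher in library 1 (all such targets: 7.85%) and 3 were 2-fold higher in library 2 (all such targets: 8.66%). These were Creb3l1, Adamts3 and Loxl4. With an assumed coefficient of variation of 0.2 between samples, edgeR's exact test called none of the 30 genes higher in library 1, where the share of targets averaging at least 10 CPM was 3.99%, and no gene reached an unadjusted p under 0.05 in that direction. It called 2 genes, Creb3l1 and Loxl4, higher in library 2, where the share was 4.07%, and 4 genes did so at an unadjusted p under 0.05.

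**Figure D2:**
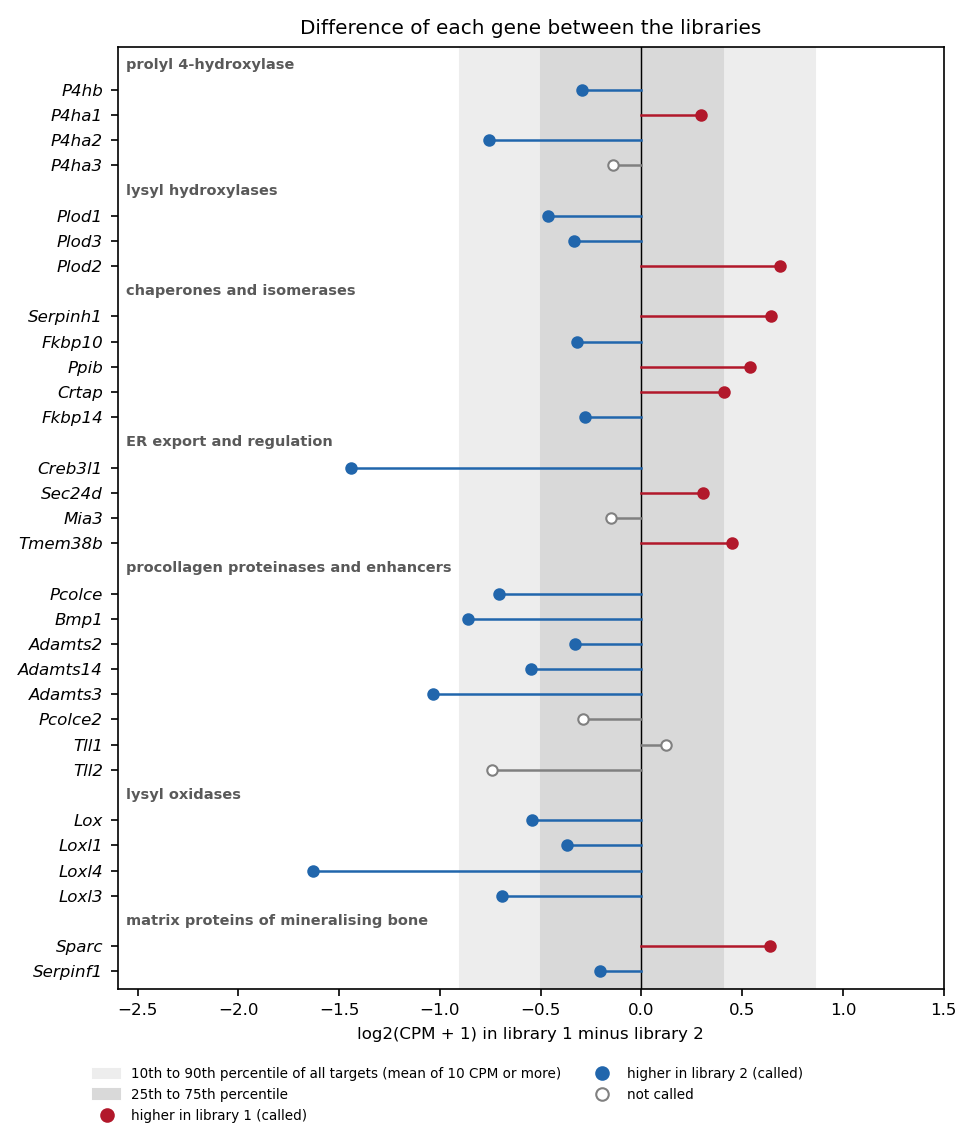
Difference of each gene in log2(CPM + 1), library 1 minus library 2, by role, coloured by the call of the exact binomial test. Shaded bands hold the 25th to 75th percentile range and the 10th to 90th percentile range of all targets averaging at least 10 CPM. Creb3l1 (-1.44), Loxl4 (-1.63) and Adamts3 (-1.03) lie outside the wider band, and no lysyl oxidase or called proteinase lies right of 0.

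The start of the promoter was read because ER stress factors are known regulators of ER chaperone genes. Every gene of the 30 with an entry was searched, and not only the chaperone and export genes. RefSeq windows on GRCm38.p6 (the mm10 assembly) were matched for 22 of the 30 genes by symbol, each with 250 bases before and 50 bases from the start site. Bmp1, Creb3l1, Fkbp10, Lox, Loxl1, Loxl3, Plod2 and Tmem38b had no entry. The motif ACGTGG, part of the unfolded protein response element, was searched on both strands. It was found in windows of 7 of these 22 genes (31.8%), namely Adamts3, Fkbp14, P4ha2, P4hb, Ppib, Sec24d and Serpinh1, and in 8.31% of all 32851 windows and 11.3% of the 9195 windows of genes averaging at least 10 CPM. Of the 7 genes, 3 were called higher in library 1 and 4 in library 2. The related motif TGACGTG, which overlaps ACGTGG where a G follows, was found for 3 genes (13.6%, against 2.01% of all windows and 2.83% of those of genes averaging at least 10 CPM), Adamts3, Mia3 and Sec24d. CCAAT was found for 9 genes (40.9%, against 37.4% and 36.0% in the same order), TATAAA for 3 (13.6%, against 13.6% and 7.04%) and GGGCGG for 17 (77.3%, against 35.7% of all windows and 63.8% of those of genes averaging at least 10 CPM). For these genes a gene counted if any of its windows matched, whereas the shares beside them are of single windows. The units thus differ, and Fkbp14 had a window with ACGTGG and another without. A match is a string of letters and not evidence of binding. The windows of 4 genes with ACGTGG are printed because 3 of them (Serpinh1, Ppib and Sec24d) were higher in library 1 while the fourth, P4hb, was higher in library 2. The motif, or its reverse CCACGT, is in capitals, and all windows are 5′ to 3′ on the strand of the gene.
Serpinh1: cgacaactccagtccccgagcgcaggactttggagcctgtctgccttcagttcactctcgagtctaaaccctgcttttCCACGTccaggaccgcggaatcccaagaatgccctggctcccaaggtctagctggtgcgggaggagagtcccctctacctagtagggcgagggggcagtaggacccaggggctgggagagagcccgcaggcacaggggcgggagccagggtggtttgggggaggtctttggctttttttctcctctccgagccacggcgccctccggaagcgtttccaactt
Ppib: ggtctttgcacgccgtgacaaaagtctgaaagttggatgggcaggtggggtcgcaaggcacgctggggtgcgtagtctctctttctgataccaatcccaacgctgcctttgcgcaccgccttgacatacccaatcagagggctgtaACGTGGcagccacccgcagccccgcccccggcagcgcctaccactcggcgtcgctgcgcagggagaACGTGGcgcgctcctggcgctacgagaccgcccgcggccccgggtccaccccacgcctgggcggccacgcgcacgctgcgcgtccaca
Sec24d: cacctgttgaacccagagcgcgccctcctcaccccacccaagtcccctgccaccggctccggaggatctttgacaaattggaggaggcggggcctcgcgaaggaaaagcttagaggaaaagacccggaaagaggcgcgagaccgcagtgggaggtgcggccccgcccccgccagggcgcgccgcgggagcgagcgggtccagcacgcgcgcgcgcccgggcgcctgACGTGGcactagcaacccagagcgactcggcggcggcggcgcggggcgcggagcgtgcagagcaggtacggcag
P4hb: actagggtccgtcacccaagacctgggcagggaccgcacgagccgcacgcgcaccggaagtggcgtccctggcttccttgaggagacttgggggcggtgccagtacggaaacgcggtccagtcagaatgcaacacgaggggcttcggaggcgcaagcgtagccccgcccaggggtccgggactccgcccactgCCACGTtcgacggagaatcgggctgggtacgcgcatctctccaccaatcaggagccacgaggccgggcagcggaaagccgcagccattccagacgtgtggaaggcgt

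The Serpinh1 window lies at chr7:99353190-99353489 on the minus strand, with the motif 172 bases before the start site. Ppib (chr9:66059919-66060218, plus strand) holds it at 104 and at 38 bases before the start, Sec24d (chr3:123267246-123267545, plus strand) at 24 bases and P4hb (chr11:120573204-120573503, minus strand) at 57 bases. In Sec24d the copy overlaps a match to TGACGTG.

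Prolyl 4-hydroxylase makes the 4-hydroxyproline that stabilises the triple helix, and is a tetramer of catalytic alpha subunits (P4ha1, P4ha2 or P4ha3) and the protein disulfide isomerase P4hb. P4hb stood at 691 CPM in library 1 and 849 CPM in library 2, and P4ha1 at 190 and 155 CPM. P4ha2 stood at 91.5 CPM in library 1 and 155 CPM in library 2. P4ha1 was thus higher in library 1 (1.23-fold, exact binomial adjusted p = 1.45e-07), whereas P4ha2 (0.590-fold, adjusted p = 2.88e-29) and P4hb (0.814-fold, adjusted p = 1.62e-29) were lower there in the same exact test. An absolute difference at least as large was found for 66.1% (P4ha1), 27.0% (P4ha2) and 66.2% (P4hb) of targets averaging at least 10 CPM. P4ha3 was the lowest subunit at 21.7 and 24.0 CPM and was not called. P4ha1 and P4ha2 are paralogs whose read ratio was 2.08 in library 1 and 0.997 in library 2. This change of the ratio by 2.09-fold (95% interval 1.85 to 2.35, adjusted p = 5.77e-34, Fisher's exact test) depends neither on the efficiency of the amplicons nor on the scaling of the libraries. P4ha1 lies on mm10 chromosome 10 from 59323296 to 59373304, and P4ha2 on chromosome 11 from 54100095 to 54131665.

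Lysyl hydroxylases make the hydroxylysines that carry sugars and take part in crosslinks. Plod2 acts on the telopeptides, the ends of the chains where bone crosslinks start. Plod1 was the highest at 201 CPM in library 1 and 277 CPM in library 2, followed by Plod3 at 82.1 and 104 CPM. Plod2 was the lowest at 58.1 CPM in library 1 and 35.7 CPM in library 2. Both libraries thus ranked the family alike. Plod2 was higher in library 1 (1.63-fold, exact binomial adjusted p = 7.29e-11) and the other two lower there. The ratio of Plod2 to Plod3 was 0.708 in library 1 and 0.344 in library 2, a change of 2.05-fold (95% interval 1.73 to 2.45, adjusted p = 8.47e-16, Fisher's exact test). Plod1 to Plod3, at 2.45 and 2.67, did not change detectably (ratio change 0.915, interval 0.809 to 1.04). Fkbp10, an isomerase of the ER that human and mouse work ties to Plod2 activity, did not follow Plod2, and the ratio of Plod2 to Fkbp10 was 0.103 in library 1 and 0.0506 in library 2 (2.03-fold, interval 1.76 to 2.35, adjusted p = 7.57e-21, Fisher's exact test).

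Chaperones and isomerases had the highest summed CPM of the intracellular roles, at 2931 CPM in library 1 against 2331 CPM in library 2. Serpinh1, the collagen-specific chaperone also known as Hsp47, stood at 1173 CPM in library 1 and 752 CPM in library 2, ranks 68 and 101 among all targets. Its mean was 962 CPM ± 298 (SD, n = 2), and it was 1.56-fold higher in library 1 (adjusted p = 1.40e-174, exact binomial test). An absolute difference at least as large was found for 34.2% of targets averaging at least 10 CPM. In edgeR's exact test with the assumed variation, Serpinh1 was not called (adjusted p = 0.495). Ppib, the cyclophilin B isomerase, and Crtap, the scaffold of prolyl 3-hydroxylation, act in 1 complex and were also higher in library 1. Ppib stood at 676 CPM in library 1 and 465 CPM in library 2 (1.45-fold). Crtap stood at 476 CPM in library 1 and 358 CPM in library 2 (1.33-fold). Of targets averaging at least 10 CPM, 42.4% differed at least as much as Ppib and 54.3% at least as much as Crtap. The ratio of Crtap to Ppib was 0.704 in library 1 and 0.770 in library 2, a small change that was called (0.915, interval 0.861 to 0.972, adjusted p = 0.00650, Fisher's exact test). Fkbp10 and Fkbp14, both ER isomerases with FK506-binding domains, went the other way. Fkbp10 stood at 565 CPM in library 1 and 706 CPM in library 2, and Fkbp14 at 41.8 and 51.0 CPM, with ratios of 13.5 and 13.8 to each other that did not differ detectably (change 0.975, interval 0.838 to 1.14). The call of Fkbp14 (adjusted p = 0.0204, exact binomial test) was lost under a pair of other scalings, with adjusted p = 0.0528 and 0.131 in the exact test. Serpinh1 outnumbered Fkbp10 by 2.08 reads to 1 in library 1 and 1.07 to 1 in library 2, a change of 1.95-fold (interval 1.86 to 2.05, adjusted p = 5.83e-158, Fisher's exact test).

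**Figure D3:**
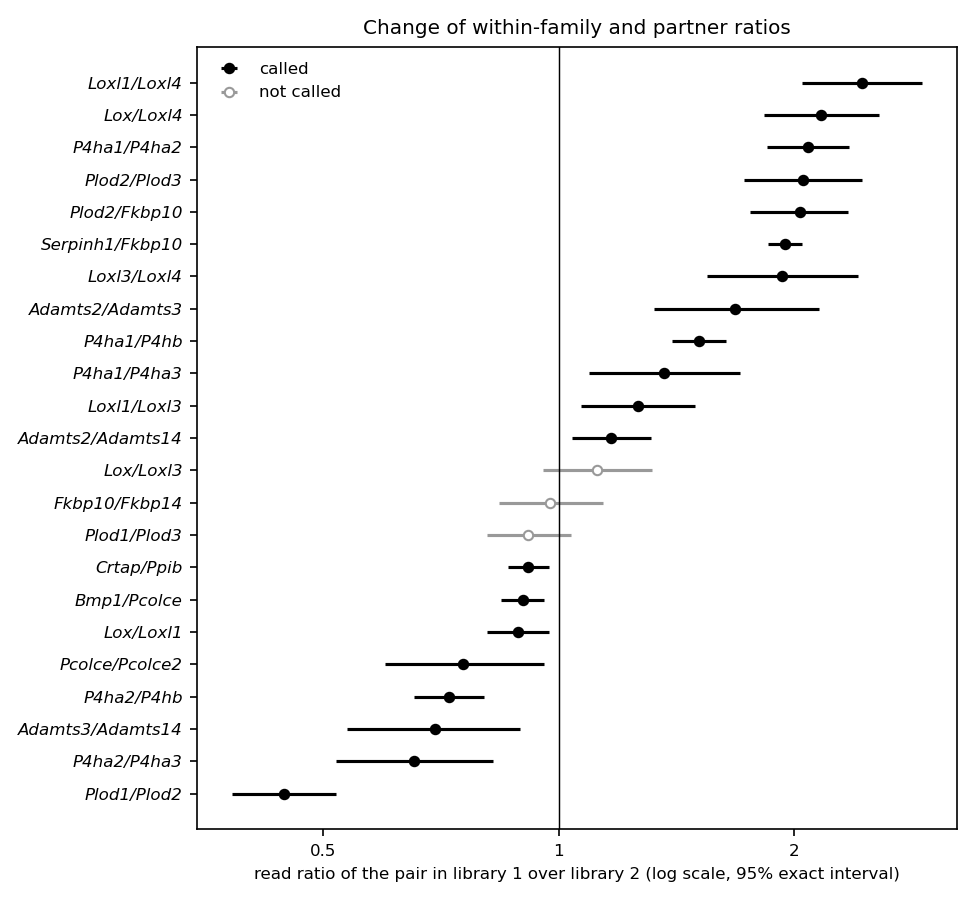
Change of the read ratio of 23 pairs of genes, each at 10 CPM or more in both libraries, given as the ratio in library 1 over that in library 2 on a log scale, with exact 95% intervals. Pairs with Plod2 or P4ha1 over a partner lie to the right of 1, at 1.36 to 2.09, and Plod1/Plod2 lies furthest to the left at 0.445.

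Export from the ER and its regulation held the intracellular gene that differed most. Creb3l1 (OASIS), a membrane-bound transcription factor that drives collagen I genes in mouse osteoblasts, stood at 120 CPM in library 1 and 328 CPM in library 2. Its mean was 224 CPM ± 147 (SD, n = 2), and a difference lower than its -1.44 was found for 2.77% of targets averaging at least 10 CPM. Counting both directions, 5.11% of these targets differed at least as much. The adjusted p was 1.34e-168 in the exact binomial test and 0.0154 in edgeR's exact test with the assumed variation. Sec24d, a cargo-binding COPII coat subunit, stood at 197 CPM in library 1 and 159 CPM in library 2, and was called higher in library 1. Tmem38b, an ER cation channel, followed it at a lower level with 20.3 and 14.6 CPM (1.39-fold, adjusted p = 0.0152, exact binomial test). Mia3 (TANGO1), which loads procollagen into COPII carriers, stood at 64.6 and 72.0 CPM and was not called. Creb3l1 lies on chromosome 2 from 91982328 to 92024502.

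By CPM, Bmp1 stood above Tll1 and Tll2, and Pcolce above Pcolce2, in both libraries. Amplification efficiency differs between amplicons, so this order is weak evidence on relative expression. Bmp1, the C-proteinase of fibrillar procollagens, stood at 390 CPM in library 1 and 709 CPM in library 2. Pcolce, which enhances its action, stood at 461 CPM in library 1 and 753 CPM in library 2. Both were called higher in library 2, at 0.550-fold and 0.612-fold in library 1 over library 2, and their ratio was 0.847 in library 1 and 0.941 in library 2 (change 0.900, interval 0.845 to 0.958, adjusted p = 0.00185, Fisher's exact test). The paralogs of Bmp1 were near the detection limit. Tll1 had 13 and 32 reads (2.29 and 2.02 CPM), and Tll2 had 2 and 20 reads (0.353 and 1.27 CPM). A count of 0 would allow up to 3 reads, or 0.530 CPM in library 1 and 0.190 CPM in library 2, and Tll2 lay under that limit in library 1. Bmp1 gave 170 reads for each Tll1 read in library 1 and 350 in library 2, a difference that was not called (adjusted p = 0.0506, Fisher's exact test). Pcolce2 stood at 17.5 and 21.6 CPM and was not called.

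The N-proteinases kept the order Adamts2, Adamts14, Adamts3 in both libraries. Adamts2, the main procollagen I N-proteinase, stood at 201 CPM in library 1 and 252 CPM in library 2. Adamts14 stood at 95.5 and 140 CPM. Adamts3, which is known for procollagen II and for activating Vegfc, stood at 15.4 CPM in library 1 and 32.5 CPM in library 2. All 3 were called higher in library 2, Adamts3 most (0.473-fold in library 1 over library 2, adjusted p = 3.11e-11, exact binomial test). The ratio of Adamts2 to Adamts3 was 13.1 in library 1 and 7.77 in library 2 (change 1.68, interval 1.32 to 2.16, adjusted p = 1.73e-05, Fisher's exact test). The collagen II gene Col2a1 itself stood at 407 CPM in library 1 and 2078 CPM in library 2, beside the chondrocyte sums given above. Of the 8 proteinase and enhancer genes none was called higher in library 1, also at an unadjusted p under 0.05, and 5 were higher in library 2. Among targets averaging at least 10 CPM, the shares called were 32.5% for library 1 and 37.0% for library 2. Tll1 and Tll2 averaged less than that, and their few reads leave little room for a call.

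Lysyl oxidases convert lysines and hydroxylysines to the aldehydes from which crosslinks form. Lox was the highest at 305 CPM in library 1 and 445 CPM in library 2, with a mean of 375 CPM ± 99.1 (SD, n = 2). Loxl1, best known from elastic fibres, stood at 167 and 216 CPM. Loxl3 and Loxl4 were lower and changed places, at 38.1 and 30.4 CPM in library 1 and at 62.3 and 96.0 CPM in library 2. All 4 were called higher in library 2 and none in library 1, also at an unadjusted p under 0.05. Among targets averaging at least 10 CPM, 37.0% were called higher in library 2 and 32.5% in library 1. An absolute difference at least as large was found for 41.9% (Lox), 58.4% (Loxl1), 30.6% (Loxl3) and 3.56% (Loxl4) of these targets. Loxl4 had the largest difference of the 30 genes, -1.63, at 0.316-fold in library 1 over library 2 (adjusted p = 4.41e-60, exact binomial test, and 0.00473 in edgeR's exact test with the assumed variation). Loxl4 differed relative to its own family, since the ratio of Loxl1 to Loxl4 was 5.48 in library 1 and 2.25 in library 2 (change 2.44, interval 2.05 to 2.92, adjusted p = 2.95e-26, Fisher's exact test). Lox to Loxl3 did not change detectably (1.12, interval 0.956 to 1.31). Lox lies on chromosome 18 from 52516067 to 52529867 and Loxl4 on chromosome 19 from 42593982 to 42612813.

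Sparc, a collagen-binding matrix protein of bone, was the most abundant of the genes at 17146 CPM in library 1 and 11030 CPM in library 2, ranks 4 and 5 among all targets. It was 1.55-fold higher in library 1, unlike the other secreted genes called, and its mean was 14088 CPM ± 4325 (SD, n = 2). Per 1000 reads of collagen I there were 117 Sparc reads in library 1 and 71.0 in library 2. Serpinf1, which codes for the secreted factor PEDF and is mutated in a form of osteogenesis imperfecta in humans, stood at 1448 CPM in library 1 and 1668 CPM in library 2 (0.868-fold, adjusted p = 2.37e-28, exact binomial test). Sparc and Serpinf1 thus differed in opposite directions. Of targets averaging at least 10 CPM, 34.7% differed at least as much as Sparc and 76.3% at least as much as Serpinf1.

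Across the 26 pairs of paralogs or partners tested, 20 ratios differed between the libraries in Fisher's exact test, adjusted over the 26 pairs, 12 of them larger in library 1 and 8 smaller. By size, 8 of the 26 changed by 2-fold or more, 2 of them (Bmp1/Tll1 and Tll1/Tll2) without a call. In 24 pairs the same gene had more reads in both libraries. The exceptions were P4ha1 with P4ha2, and Loxl3 with Loxl4. The test covers counting error of 2 libraries only. Among single targets averaging at least 10 CPM, the binomial test called 32.5% higher in library 1 and 37.0% higher in library 2. The share of arbitrary gene pairs that would be called was not computed, so the counts of pairs are not shown to be particular to these families.

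Other genes of the pathway were taken from lists outside the 31. Their counts stand beside the 32.5% and 37.0% of targets averaging at least 10 CPM that were called higher in library 1 and library 2. Of the 4 genes listed under the prolyl 3-hydroxylase family name, 3 were called for library 1 and none for library 2, also at an unadjusted p under 0.05. P3h4 stood at 246 CPM in library 1 and 194 CPM in library 2 (adjusted p = 3.28e-12, exact binomial test), and P3h1, the enzyme that works with Crtap and Ppib, stood at 160 and 165 CPM and was not called. P3h2 had the largest difference of that list (0.37) at 30.2 and 23.2 CPM. Of the other 4 ER isomerases of the FKBP family, 3 were higher in library 1, unlike Fkbp10 and Fkbp14, with Fkbp9 at 246 and 186 CPM and Fkbp11 at 131 CPM in library 1 and 65.9 CPM in library 2 (adjusted p = 1.47e-42, exact binomial test). The galactosyltransferase Colgalt1 stood at 51.2 and 39.2 CPM and was higher in library 1, while Colgalt2 stood at 3.00 and 3.61 CPM. Of 13 COPII genes, 4 were higher in library 1 and 3 in library 2, with Sec31a at 436 and 336 CPM, Sec24c at 232 and 258 CPM and Sec24a at 43.1 and 24.3 CPM. The symbol Mia2 had no read in either library.

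General ER chaperones were called in both directions, 3 higher in library 1 and 5 in library 2 of 10. Calr stood at 673 CPM in library 1 and 910 CPM in library 2, Hspa5 at 333 and 361 CPM, and Sdf2l1 had the largest difference (-1.16) at 11.7 and 27.3 CPM. Among 7 ER stress and CREB3-type regulators, 2 were called in each direction. Mbtps1, the site-1 protease that cleaves membrane-bound factors of the Creb3l1 type, stood at 119 CPM in library 1 and 215 CPM in library 2. It was called on the same side as Creb3l1 (adjusted p = 6.40e-49, exact binomial test). Mbtps2 of the same list was called higher in library 1, at 25.1 and 19.5 CPM (adjusted p = 0.0390, exact binomial test). Atf4 stood at 367 and 362 CPM and Xbp1 at 339 and 261 CPM. Of the osteogenesis imperfecta genes outside the 31, 4 were measured, and Kdelr2 (290 and 198 CPM) was higher in library 1 and the osteoblast factor Sp7 (26.5 and 54.5 CPM) higher in library 2. Of 4 proline supply genes, Aldh18a1 (80.0 and 110 CPM) and Pycr1 (42.4 and 80.6 CPM) were called for library 2 and none for library 1, also at an unadjusted p under 0.05.

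Fibrillar collagens are the substrates of these enzymes. Of 11 fibrillar collagen genes, 3 were higher in library 1 and 8 in library 2, with a median difference of -0.78. Col1a1 stood at 119187 CPM in library 1 and 132878 CPM in library 2, whereas Col1a2 was at 27745 and 22481 CPM. The chains of collagen I thus differed in opposite directions. Per read of collagen I, 9 of the 30 genes were higher in library 1, among them Tll1, which was not called. On that scale the median difference of all targets averaging at least 10 CPM was 0.03. The share of all targets higher in library 1 per read of collagen I was not computed. Serpinh1 gave 7.98 reads per 1000 collagen I reads in library 1 and 4.84 in library 2, Bmp1 2.66 and 4.56, and Lox 2.07 and 2.86.

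**Figure D4:**
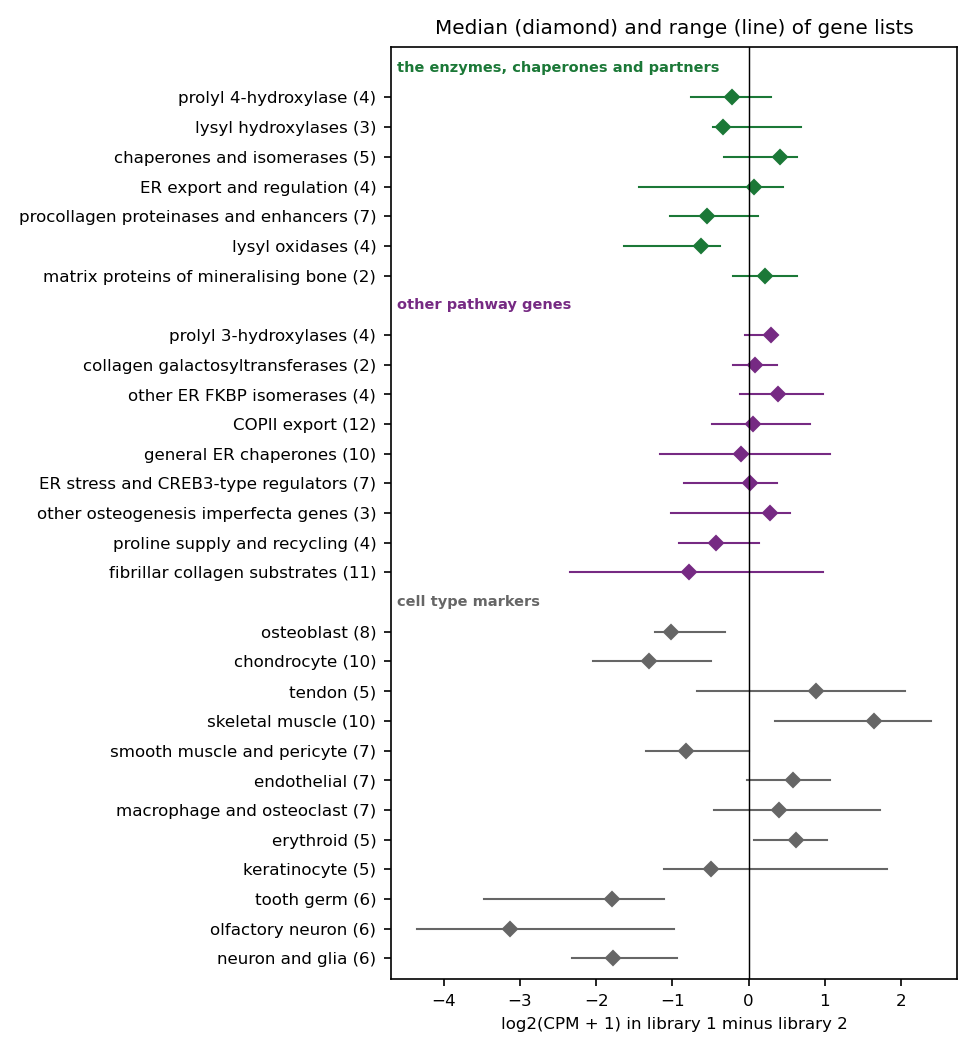
Median (diamond) and range (line) of the difference in log2(CPM + 1), library 1 minus library 2, for the 7 roles, for other pathway lists and for cell type markers, over genes averaging at least 1 CPM (number in brackets). Lysyl oxidases (-0.62) and proteinases (-0.55) lie left of 0, and chaperones (0.41) lie right of 0. Osteoblast (-1.02), chondrocyte, smooth muscle and pericyte, keratinocyte, tooth germ, and neuron and glia markers also lie left of 0. Olfactory neuron markers (-3.13) lie furthest left. Tendon, endothelial, macrophage and osteoclast, and erythroid markers lie right of 0, and skeletal muscle markers (1.65) lie furthest right.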

How the data were processed

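Total RNA of cranial suture tissue was extracted and profiled with an Ion AmpliSeq mouse panel of gene-specific amplicons, per the labels' protocols. The authors deposited CPM values for 23930 targets in 2 libraries, computed within each library. Per the submitters' processing notes, the genome build was mm10. Aligner and counting tool: not given in the sources used here. Reads were recovered, since 100% of the values above 0 came out as whole reads (tolerance 0.02 read) worth 0.177 CPM in library 1 and 0.0633 CPM in library 2. On these reads 4084 targets were called higher in library 1 and 4779 in library 2. In 27 rows a date stood for the symbol, which was restored from the target name.

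Reads were compared with exact binomial tests (SciPy 1.17.1), Benjamini-Hochberg adjusted over all targets, and pair ratios with Fisher's exact test, adjusted over 26 pairs. The call at a 2-fold difference and edgeR 4.0.16 with an assumed coefficient of variation of 0.2 were alternatives, as were other scalings, pseudocounts and filters. The binomial test, edgeR's test and the pair ratio were tested on simulated data. Reads carry no molecular identifiers, so intervals (exact, 95%) and limits cover counting error only. Gene coordinates come from GENCODE M21 (GRCm38), and promoter windows from RefSeq. The genes, the lists, the pairs and the motifs were chosen with earlier results of these data known. All 30 genes measured were described; from each other pathway list the 2 highest and the gene with the largest difference averaging at least 10 CPM were named by rule. Mia2, Mbtps2, Krt14, Odam and C1qa were named after their values were seen. Marker lists are given by counts and sums. Of 145 genes in 21 such lists, 4 were not analysed here.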

Additional observations from a re-analysis of the deposited data

How the results depend on the processing

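Calls depended on the rule more than on the scaling. With a 2-fold difference and no test, 0 genes averaging at least 1 CPM were higher in library 1 and 3 in library 2 (Tll2, below that mean, was 3.58-fold higher in library 2), against 8 and 17 in the exact binomial test, and with edgeR's exact test at an assumed coefficient of variation of 0.2 they were 0 and 2, because these rules ask for more than counting error. Of the pairs, 8 changed by 2-fold, against 20 called. TMM factors, median-of-ratios factors, totals without the 10 highest targets and collagen I reads as the scale gave 8 and 16 or 17 calls, and all 30 genes kept their direction in each. The median difference stayed between -0.32 and -0.22 over these scalings, pseudocounts of 0.5 and 5 CPM and 2 other filters. Fkbp14 lost its call with median-of-ratios factors and with the collagen I scale. The genes summed to 22458 CPM on average, 8370 CPM without Sparc. The library left out set the sum to 19932 or 24985 CPM and the number detected to 29 or 30. Tll1 rested on 13 and 32 reads and Tll2 on 2 and 20 reads in libraries 1 and 2.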
